A study of Arabidopsis thaliana with 24 samples.

Results

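The genes described here were present in seeds of each of 3 mutants of Arabidopsis thaliana that do not survive drying and all but undetected in seeds of 3 wild types. A locus belonged to the group when its raw counts summed to 20 or more in each of fus3-3, lec1-1 and abi3-5 and to 3 or fewer over the 9 wild-type libraries. The rule found 59 of the 33597 loci of the deposited count table, after 3 loci and the genes of the chloroplast and mitochondrial genomes had been left out by name. AT5G50010, AT5G50011 and AT5G50012 had identical counts in every library and cannot be told apart, so the 59 loci gave 57 distinct profiles, which are called members below. The condition was met on the mutant side by 13591 loci and on the wild-type side by 14960. Because these sums chose the members, the difference between the 3 mutants and the wild types is given as a description, with no test.

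The mutants were lec1-1 and lec2-1 in the ecotype Wassilewskija (Ws), abi3-5 and abi3-1 in Landsberg erecta (Ler), and fus3-3 in Columbia 0 (Col-0), and plants of the ecotypes Ws, Ler and Col-0 served as wild types. Seeds were dissected from siliques at 15, 17 and 21 days after flowering (DAF). The series design gives lec1-1, abi3-5 and fus3-3 as desiccation intolerant, and lec2-1 and the weak allele abi3-1 as tolerant. The sample labels call abi3-1 intolerant, and the design was followed. Collections were made in triplicate, but RNA was pooled to 1 library per genotype and day and amplified by in vitro transcription. The days are thus the only repeats of a genotype, and in tests of change between days the mutants are the repeats. Every p below therefore measures the spread between libraries that is left after the fitted effects of genotype and day. None measures the spread between separate collections of seed. In lec2-1 the count columns of 15 and 17 DAF did not differ at any locus and were taken as 1 library, written 15/17 DAF, which left 23 distinct libraries with totals of 1670355 to 6531673 counts. Genes of 8 seed storage proteins, the tissue's defining transcripts at these ages, took 6.94 to 22.8% of the counts in libraries of the intolerant mutants, 16.7 to 39.6% in lec2-1, 20.06 to 54.4% in abi3-1 and 12.6 to 61.1% in the wild types. Levels are given as CPM, the counts of a gene per 1000000 counts of the library total after TMM scaling. The scaling factor was highest at 21 DAF in Ws, 1.06, and in Ler, 0.767, but at 17 DAF in Col-0, 0.971, so the Col-0 libraries of 17 and 21 DAF stand apart in the order of their days. With these labels exchanged, 5 members in place of 3 were called in lec2-1 against abi3-1, and 3 in place of 1 in fus3-3 against abi3-5. In bulk seed, fewer cells of a type and less RNA per cell cannot be told apart.

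LEC1, ABI3, FUS3 and LEC2 are transcription regulators that direct seed maturation, in which the embryo fills with storage protein and oil and gains the ability to survive drying. LEC1 is a subunit of a CCAAT-binding factor, and ABI3, FUS3 and LEC2 carry a B3 domain that binds the RY element of seed gene promoters. Mutant embryos that lack this programme are known to take on traits of germinating seedlings, such as leaf-like cotyledons, green plastids and precocious apex growth. Strong and weak alleles of ABI3 are known to differ in how far drying tolerance is lost.

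Among the members with a known role were 2 genes that decorate anthocyanin pigments and 2 HECATE genes of the developing pistil. UF3GT, encoded by AT5G54060 at chr5:21936746-21938396 on the minus strand of TAIR10.1, adds a sugar to anthocyanins. AT5MAT, encoded by AT3G29590 at chr3:11398592-11400332 on the minus strand, adds a malonyl group to them. HEC1, encoded by AT5G67060 at chr5:26765992-26767257 on the plus strand, and HEC2, encoded by AT3G50330 at chr3:18656955-18658377 on the minus strand, are close bHLH relatives that act in the transmitting tract of the pistil. The 250 bases before the annotated start of each gene, from the RefSeq assembly TAIR10.1, are shown because the genes of each pair had similar profiles over the libraries. Capitals mark the G-box CACGTG, the RY element CATGCA and the TATA motif TATAAA on either strand, and each sequence reads 5′ to 3′ on the strand of its gene.
UF3GT chr5:21938397-21938646 (minus): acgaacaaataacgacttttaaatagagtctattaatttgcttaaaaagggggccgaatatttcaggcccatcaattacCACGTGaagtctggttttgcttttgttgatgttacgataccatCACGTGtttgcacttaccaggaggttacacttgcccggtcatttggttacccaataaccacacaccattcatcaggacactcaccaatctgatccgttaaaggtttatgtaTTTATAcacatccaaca
AT5MAT chr3:11400333-11400582 (minus): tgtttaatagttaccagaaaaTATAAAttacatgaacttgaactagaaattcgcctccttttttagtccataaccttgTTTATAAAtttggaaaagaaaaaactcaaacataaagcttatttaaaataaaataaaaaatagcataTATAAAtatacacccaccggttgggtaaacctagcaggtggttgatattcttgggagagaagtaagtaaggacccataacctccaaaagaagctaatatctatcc
HEC1 chr5:26765742-26765991 (plus): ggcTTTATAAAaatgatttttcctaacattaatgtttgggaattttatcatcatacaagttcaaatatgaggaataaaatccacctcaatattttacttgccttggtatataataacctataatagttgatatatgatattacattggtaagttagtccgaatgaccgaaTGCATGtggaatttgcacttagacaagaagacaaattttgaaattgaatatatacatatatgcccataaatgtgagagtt
HEC2 chr3:18658378-18658627 (minus): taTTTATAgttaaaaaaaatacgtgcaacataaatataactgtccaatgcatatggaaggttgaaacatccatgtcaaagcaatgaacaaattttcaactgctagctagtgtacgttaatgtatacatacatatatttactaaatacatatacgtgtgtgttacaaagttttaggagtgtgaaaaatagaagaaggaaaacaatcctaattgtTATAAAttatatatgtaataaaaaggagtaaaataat
The window of UF3GT held G-boxes 171 and 128 bases before the start and a TATA motif 17 bases before it. The window of AT5MAT held TATA motifs, the nearest 105 bases before the start, and neither other motif. The window of HEC1 held an RY element 80 bases before the start and TATA motifs 245 and 247 bases before it, and that of HEC2 held TATA motifs 37 and 248 bases before the start and neither other motif. A match is a run of letters and not a binding site.

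Together the members were low but well separated between mutants and wild types. Their counts summed to 4272 in lec1-1, 2188 in abi3-5 and 7802 in fus3-3, to 1128 in lec2-1 and 82 in abi3-1, and to 100 over the 9 wild-type libraries, of which 23 were in Ws, 39 in Ler and 38 in Col-0. Scaled for depth, the summed level was 284, 336 and 190 CPM in lec1-1 at 15, 17 and 21 DAF, 129, 122 and 251 CPM in abi3-5, and 259, 422 and 285 CPM in fus3-3. It was 161 CPM in lec2-1 at 15/17 DAF and 116 CPM at 21 DAF, 24.9, 7.96 and 8.42 CPM in abi3-1, and 2.76 to 10.5 CPM in the wild types with a median of 5.06 CPM. The lec2-1 libraries thus lay within or just below the range of the intolerant mutants, whereas the abi3-1 libraries of 17 and 21 DAF lay inside the range of the wild types and that of 15 DAF above it.

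**Figure D1:**
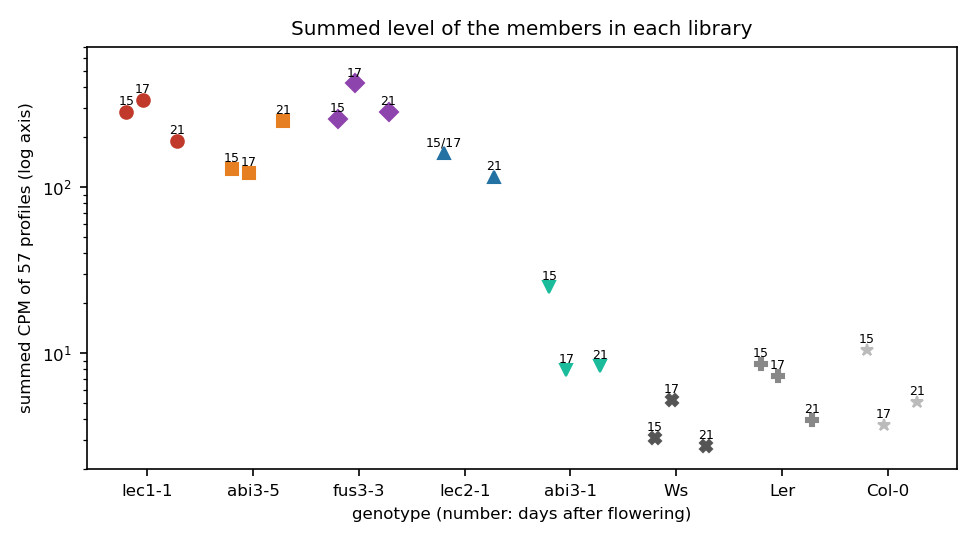
Summed CPM of the 57 member profiles in each of the 23 libraries, on a log axis, by genotype with the day after flowering beside each point. Libraries of lec1-1, abi3-5 and fus3-3 spanned 122 to 422 CPM, those of lec2-1 116 to 161 CPM, those of abi3-1 7.96 to 24.9 CPM and the wild types 2.76 to 10.5 CPM.

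Single members averaged 1.54 to 18 CPM over the 9 libraries of lec1-1, abi3-5 and fus3-3, with a median of 3.15 CPM, whereas the median of all 13591 loci with 20 or more counts in each of these mutants was 11.1 CPM. The thresholds correspond to 1.28, 1.58 and 0.845 CPM for 20 counts in lec1-1, abi3-5 and fus3-3, and to 0.163 CPM for 3 counts over the wild types. For 35 of the 57 members each of the 9 libraries lay above every wild-type library, and 10 members had no count in any wild type. The highest mean was in fus3-3 for 27 members, in lec1-1 for 19 and in abi3-5 for 11. The mutant abi3-5 also had the smallest summed library total of these, 7441148 counts beside 9696276 in lec1-1 and 15459841 in fus3-3, and it was the mutant nearest to the 20-count limit for 42 members. Per kilobase of mRNA, the levels ran from 0.485 CPM for ABCC6, a transporter of the ATP-binding cassette class, to 13.5 CPM for XTH19, a xyloglucan-modifying enzyme of the cell wall. By the same measure per kilobase, AT5G08391, a small putative membrane protein, had 12.7 CPM, the defensin-like AT4G22217 had 11 CPM, NdhO had 7.94 CPM and NAI1 had 7.36 CPM.

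**Figure D2:**
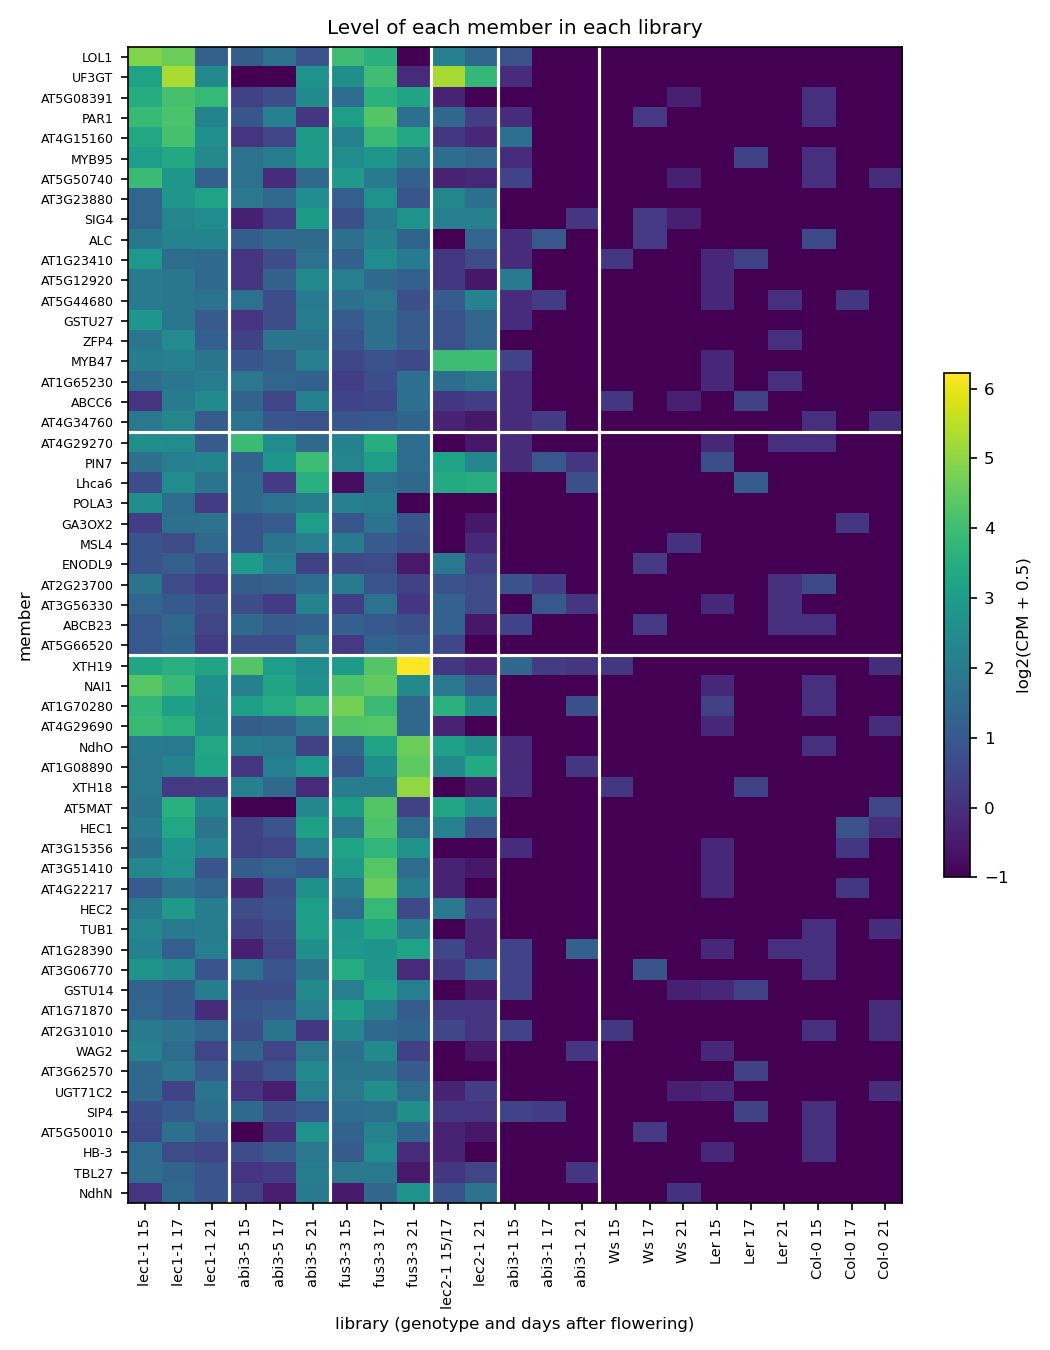
Level of each member, as log2 of CPM plus 0.5, in each of the 23 libraries, with members grouped by the mutant in which their mean was highest (lec1-1 at the top, abi3-5 in the middle, fus3-3 at the bottom). The 9 left columns of lec1-1, abi3-5 and fus3-3 are bright almost throughout, lec2-1 is bright for a part of the members, and abi3-1 resembles the 9 wild-type columns on the right.

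At the edge of the rule, 16 loci had exactly 3 wild-type counts, among them AT1G70280, HEC1, AT4G29270, PIN7 and AT5G50740, and 18 further loci that met the mutant minimum had 4, among them AT5G44417, CHLI2, AT5G57770, AT3G43670 and MCM3. On the other side, 5 members had 20 counts in their lowest mutant (AT1G23410, AT2G31010, SIP4, NdhN and ENODL9), and 7 loci had 19 (AT1G66880, RPA70D, GATA12, XCP2, AT3G06145 among them). The mirror image of the rule, with 20 or more counts in each wild type and 3 or fewer over the 9 intolerant libraries, was met by a single locus. That locus, AT5G53260, had 1, 0 and 2 counts in lec1-1, abi3-5 and fus3-3, against 95, 23 and 39 counts in Ws, Ler and Col-0.

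The anthocyanin genes had their peaks in different libraries of the mutants. UF3GT had 8.57, 39.4 and 5.02 CPM in lec1-1 at 15, 17 and 21 DAF, 0, 0 and 6.09 CPM in abi3-5, and 5.62, 15.8 and 0.403 CPM in fus3-3. It had 38.2 and 13.5 CPM in lec2-1 at 15/17 and 21 DAF, and was listed at 0 in all but 1 library of abi3-1, which held 1 count, and in all 9 wild-type libraries. AT5MAT had 2.95, 11.5 and 4.34 CPM in lec1-1, 0, 0 and 4.62 CPM in abi3-5, 7.24, 19.3 and 0.807 CPM in fus3-3, and 8.92 and 5.38 CPM in lec2-1. Both genes were highest at 17 DAF in lec1-1 and fus3-3 and had counts in abi3-5 at 21 DAF alone, so abi3-5 overlapped the wild types on the earlier days. Against Ws, the 258 counts of UF3GT in lec1-1 were at least 37.2-fold higher and its 193 counts in lec2-1 at least 51.2-fold higher, with a floor of 3 counts over the 3 Ws libraries.

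Genes of the same pigment pathway, with UF3GT and AT5MAT among them, were chosen after the members were seen. As a whole they overlapped, with a sum of 109 to 679 CPM in the intolerant mutants, 328 to 502 CPM in lec2-1 and 112 to 410 CPM in abi3-1, against 85.7 to 511 CPM in the wild types. Of 14 anthocyanin genes, 10 had 20 or more counts in each intolerant mutant and 5 had 3 or fewer over the wild types. Both numbers include UF3GT and AT5MAT. Some genes of the pathway were scarce in the wild types. LDOX, which makes the coloured anthocyanidin, had 130 counts in lec1-1, 20 in abi3-5, 409 in fus3-3, 143 in lec2-1 and 0 in abi3-1, against 3, 7 and 2 in Ws, Ler and Col-0. GSTF12, the glutathione transferase needed to move anthocyanins into the vacuole, had 244 counts in lec1-1, 34 in abi3-5, 538 in fus3-3, 348 in lec2-1 and 2 in abi3-1, against 2, 5 and 0 in the wild types. MYB75, listed by RefSeq as PAP1 and an activator of the pathway, had 25 counts in lec1-1, 17 in abi3-5, 31 in fus3-3, 66 in lec2-1 and 0 in abi3-1, against 1, 0 and 0 in the wild types, and so missed the rule through abi3-5. All 3 genes had more counts in lec2-1 than in abi3-1 and fewest of the intolerant mutants in abi3-5.

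HEC1 and HEC2 had their highest library on the same day of each intolerant mutant. HEC1 had 3.40, 9.30 and 2.97 CPM in lec1-1 at 15, 17 and 21 DAF, 0.849, 1.37 and 8.19 CPM in abi3-5, and 3.24, 17.6 and 2.42 CPM in fus3-3. HEC2 had 3.55, 6.86 and 3.65 CPM in lec1-1, 1.13, 1.37 and 7.77 CPM in abi3-5, and 2.38, 13.8 and 1.01 CPM in fus3-3. In both, 17 DAF was the highest day of lec1-1 and fus3-3 and 21 DAF that of abi3-5, and neither gene had a count in abi3-1. In lec2-1, HEC1 had 4.14 and 1.3 CPM and HEC2 had 3.19 and 0.742 CPM at 15/17 and 21 DAF. HEC3, the remaining HECATE gene, had 3 or fewer counts over the wild types and did not reach 20 in each mutant.

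Further members encode bHLH proteins and other regulators. NAI1, the bHLH protein required for endoplasmic reticulum bodies, had 19.8, 14.2 and 5.70 CPM in lec1-1 at 15, 17 and 21 DAF, 3.96, 8.90 and 5.67 CPM in abi3-5, and 17.8, 21.6 and 5.04 CPM in fus3-3, 3.19 and 1.67 CPM in lec2-1, and no count in abi3-1. PAR1, an HLH protein that restrains shade responses, had 14, 17.7 and 4.34 CPM in lec1-1, 1.42, 3.88 and 0.630 CPM in abi3-5, and 7.67, 19 and 2.62 CPM in fus3-3. For NAI1 all 9 intolerant libraries lay above the wild types, and for PAR1 the abi3-5 library of 21 DAF, with 3 counts, lay at the level of a wild-type library with 1 count. ALC, a bHLH gene of the silique valve margin, was even over the days, with 3.1, 4.21 and 4.34 CPM in lec1-1, 1.7, 2.28 and 2.31 CPM in abi3-5, and 2.70, 4.02 and 2.02 CPM in fus3-3. The whole of ALC lies within ICU2 on the other strand, and reads of the pair cannot be told apart. The gene bHLH145 (AT5G50010, with the 2 loci of identical counts) had 1.03, 2.66 and 1.60 CPM in lec1-1, 0, 0.457 and 6.09 CPM in abi3-5, and 1.94, 4.24 and 2.02 CPM in fus3-3.

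As a ratio to the mean of the intolerant mutants, the lec2-1 level was 332% for Lhca6 and 288% for UF3GT. MYB47, a MYB transcription factor, had the highest such ratio of the members, 653%. It had 15.0 and 15.4 CPM in lec2-1 at 15/17 and 21 DAF, beside 3.69, 3.99 and 2.97 CPM in lec1-1, 1.42, 1.83 and 3.78 CPM in abi3-5, and 0.972, 1.27 and 1.01 CPM in fus3-3. Its relative MYB95 had 7.83, 9.96 and 4.79 CPM in lec1-1, 2.83, 3.65 and 6.93 CPM in abi3-5, 5.29, 6.46 and 3.63 CPM in fus3-3, and 2.55 and 2.04 CPM in lec2-1. For MYB95 every intolerant and lec2-1 library was above every wild-type library. LOL1, a zinc finger gene related to the cell death regulator LSD1, had 28.4, 23.9 and 1.83 CPM in lec1-1, 1.7, 2.74 and 1.26 CPM in abi3-5, and 14.9, 11.5 and 0 CPM in fus3-3, with no count in any wild type. The homeobox gene HB-3 had 0.403 to 5.08 CPM over the 9 intolerant libraries, and its highest library was fus3-3 at 17 DAF.

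**Figure D3:**
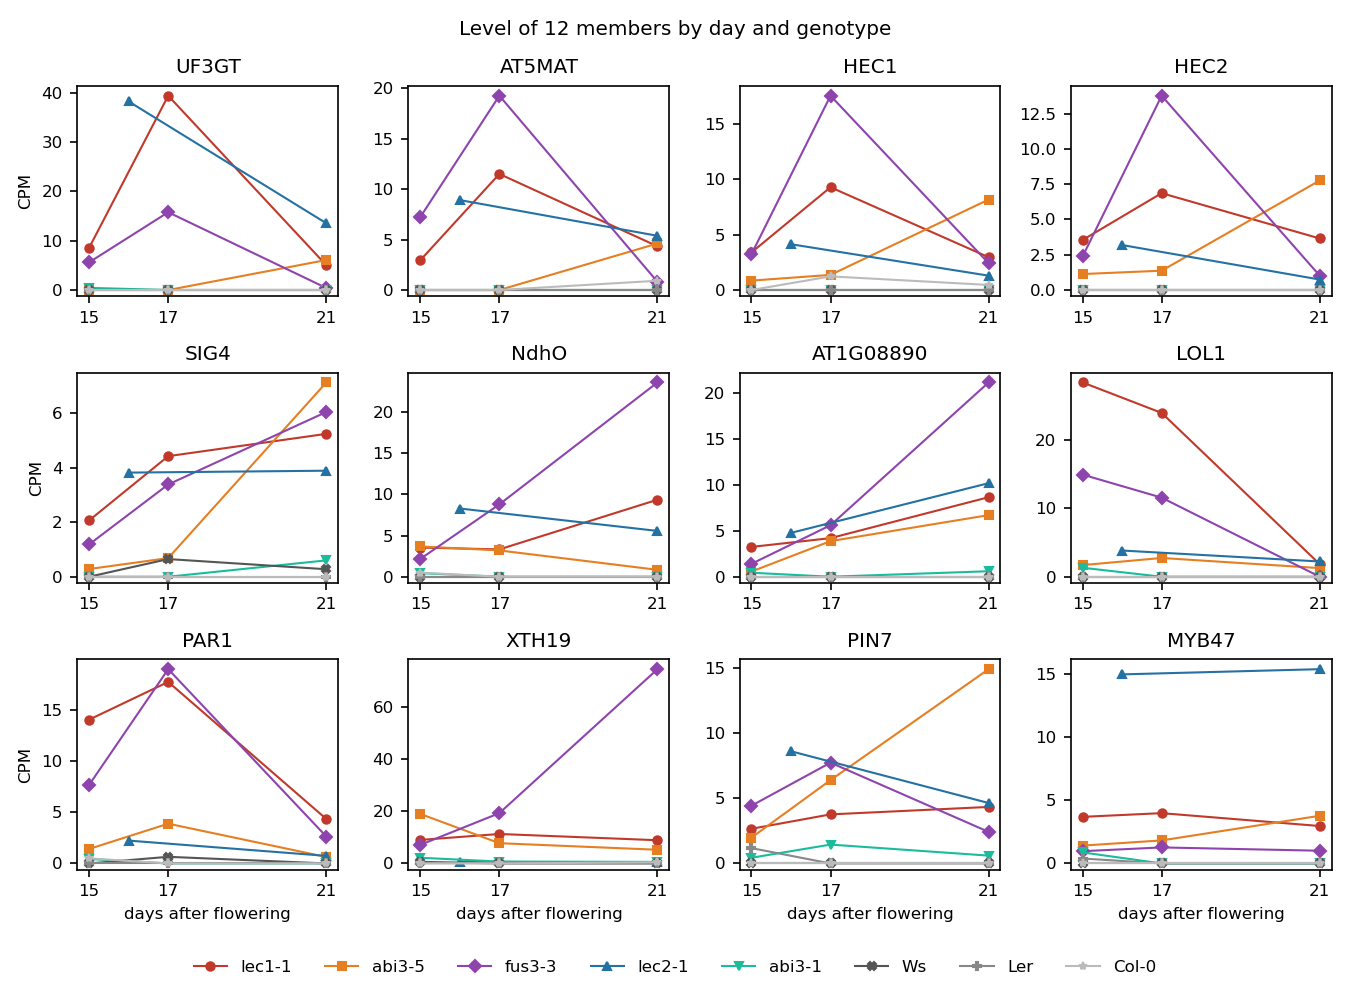
CPM of 12 members at 15, 17 and 21 days after flowering in the 8 genotypes, with the doubled lec2-1 library drawn between 15 and 17. UF3GT, AT5MAT, HEC1 and HEC2 peak at 17 DAF in lec1-1 and fus3-3 and at 21 DAF in abi3-5, SIG4 and AT1G08890 are highest at 21 DAF in all 3 intolerant mutants, LOL1 is lowest at 21 DAF in each, and MYB47 is highest in lec2-1.

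A set of members belongs to the chloroplast. NdhO and NdhN are nucleus-encoded subunits of the NDH complex, which cycles electrons around photosystem I, Lhca6 is the antenna protein that ties this complex to photosystem I, and SIG4 is a plastid sigma factor known to direct transcription of a plastid NDH gene. NdhO had 3.55, 3.32 and 9.36 CPM in lec1-1 at 15, 17 and 21 DAF, 3.68, 3.2 and 0.840 CPM in abi3-5, and 2.16, 8.79 and 23.6 CPM in fus3-3, with 8.29 and 5.56 CPM in lec2-1. NdhN had 0.591, 2.21 and 1.37 CPM in lec1-1, 0.849, 0.228 and 3.36 CPM in abi3-5, and 0.216, 2.12 and 6.05 CPM in fus3-3. The pair moved apart in abi3-5, where NdhO was lowest and NdhN highest at 21 DAF, while both were highest at 21 DAF in fus3-3. Lhca6 had 1.18, 5.09 and 2.97 CPM in lec1-1, 2.26, 0.685 and 11.1 CPM in abi3-5, 0.108, 2.75 and 2.22 CPM in fus3-3, and 10.2 and 10.8 CPM in lec2-1. SIG4 had 2.07, 4.43 and 5.25 CPM in lec1-1, 0.283, 0.685 and 7.14 CPM in abi3-5, 1.19, 3.39 and 6.05 CPM in fus3-3, and 3.82 and 3.89 CPM in lec2-1. It was highest at 21 DAF in each intolerant mutant. For Lhca6 the lowest intolerant libraries overlapped the Ler library of 17 DAF, which held 2 counts. For NdhN the libraries of abi3-5 at 17 DAF and fus3-3 at 15 DAF lay below Ws at 21 DAF, which held 2 counts. For NdhO each intolerant library lay above every wild-type library.

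NDH genes, a family chosen after the members were seen and counted here with NdhN and NdhO, were largely scarce in the wild types. The rule itself fixed the near-absence of these 2 members there. Of 18 NDH genes, 6 had 20 or more counts in each intolerant mutant and 12 had 3 or fewer over the wild types, and the 2 that met both were the members NdhN and NdhO. The summed level of the 18 genes was 20.8 to 125 CPM in lec1-1, abi3-5 and fus3-3. It was 84.8 to 99.2 CPM in lec2-1 and 9.41 to 20.13 CPM in abi3-1, against 5.98 to 22.8 CPM in the wild types. PnsB2, another subunit, missed the rule with 128 counts in lec1-1, 11 in abi3-5, 102 in fus3-3, 66 in lec2-1 and 1 in abi3-1, against none in the wild types. Of a list of 45 photosynthesis genes, 44 had 20 or more counts in each intolerant mutant, and 1, Lhca6, was below the wild-type limit. All 6 sigma factor genes had 20 or more counts in each intolerant mutant, and SIG4 alone was below the wild-type limit.

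Cell wall and growth genes formed a further set. XTH18 (AT4G30280, chr4:14825757-14827211) and XTH19 (AT4G30290, chr4:14828712-14830224) lie in tandem on the minus strand with 1500 bases between them, and encode xyloglucan endotransglucosylase/hydrolases. XTH19 had 9.01, 11.3 and 8.90 CPM in lec1-1 at 15, 17 and 21 DAF, 19, 7.76 and 5.25 CPM in abi3-5, and 7.13, 19.3 and 74.4 CPM in fus3-3. XTH18 had 3.25, 0.664 and 0.684 CPM in lec1-1, 3.96, 2.28 and 0.420 CPM in abi3-5, and 3.56, 3.6 and 32.7 CPM in fus3-3. In both genes the fus3-3 library of 21 DAF held the highest value, and the day order in abi3-5 ran the other way. As near copies they may have shared reads, and how the authors counted such reads is not given in the sources used here. The 617 counts of XTH19 in fus3-3 against 1 in Col-0 gave a ratio of 151 with a counting interval of 27.0 to 5983. Of 30 genes of the XTH family, 12 had 20 or more counts in each intolerant mutant and 18 had 3 or fewer over the wild types. The summed level of the family ran the other way from the 2 members, although the ranges overlapped. It was 323 to 1556 CPM in the intolerant mutants, 3401 to 6614 CPM in lec2-1 and 1474 to 13847 CPM in abi3-1, against 689 to 14720 CPM in the wild types. With 18 of the 30 genes near absent there, the wild-type sum rests on the other genes and does not describe each gene of the family. The list of 41 cell wall genes summed to 828 to 1856 CPM in the intolerant mutants, against 2166 to 14554 CPM in the wild types. That list shares XTH genes with the family and is not a separate observation. TBL27, which acetylates xyloglucan, had 0.202 to 3.57 CPM over the 9 libraries, and AT3G06770, a pectin lyase-like protein, had 0.403 to 10.5 CPM, with fus3-3 at 21 DAF lowest in both.

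Auxin and gibberellin genes were represented by PIN7, WAG2 and GA3OX2. PIN7, an auxin efflux carrier, had 2.66, 3.76 and 4.34 CPM in lec1-1 at 15, 17 and 21 DAF, 1.98, 6.39 and 14.9 CPM in abi3-5, 4.43, 7.73 and 2.42 CPM in fus3-3, and 8.60 and 4.64 CPM in lec2-1. WAG2, a kinase that acts on PIN proteins, had 0.807 to 4.87 CPM over the intolerant libraries, and its highest was fus3-3 at 17 DAF. GA3OX2, which makes active gibberellin, had 0.739, 2.66 and 2.74 CPM in lec1-1, 1.42, 1.60 and 7.56 CPM in abi3-5, and 1.40, 2.86 and 1.41 CPM in fus3-3. WAG2 and GA3OX2 each had 1 count in lec2-1, at 21 DAF. The tubulin gene TUB1 had 4.58, 3.32 and 3.65 CPM in lec1-1, 0.849, 1.14 and 7.56 CPM in abi3-5, and 6.48, 10.1 and 3.63 CPM in fus3-3. POLA3, a subunit of DNA primase, had 5.32, 2.44 and 0.684 CPM in lec1-1, 2.26, 2.74 and 3.57 CPM in abi3-5, and 3.89, 3.6 and 0 CPM in fus3-3, and it had no count in lec2-1, abi3-1 or any wild type.

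Among members of less defined function, AT1G70280, with an NHL domain, had 13.3, 7.97 and 5.48 CPM in lec1-1, 7.93, 10.5 and 14.5 CPM in abi3-5, 25.6, 14.7 and 2.22 CPM in fus3-3, and 11.8 and 5.01 CPM in lec2-1. AT1G08890, of the major facilitator family of transporters, had 3.25, 4.21 and 8.67 CPM in lec1-1, 0.566, 3.88 and 6.72 CPM in abi3-5, 1.40, 5.61 and 21.2 CPM in fus3-3, and 4.78 and 10.2 CPM in lec2-1. Both were above every wild-type library in all 9 intolerant libraries. AT5G08391 had 10.6, 17.0 and 13.9 CPM in lec1-1, 0.849, 1.14 and 5.04 CPM in abi3-5, and 2.48, 11.8 and 8.87 CPM in fus3-3. AT4G15160, of a lipid-transfer protein family, had 9.60, 17.0 and 5.70 CPM in lec1-1, 0.566, 0.913 and 7.14 CPM in abi3-5, and 4, 14.8 and 9.48 CPM in fus3-3. Both AT5G08391 and AT4G15160 were lowest in abi3-5 at 15 and 17 DAF. The phosphatase-like AT4G29690 had 1.7 to 19.6 CPM and the acid phosphatase AT4G29270 had 1.60 to 14.7 CPM over the 9 libraries. The remaining members include the glutathione transferases GSTU14 and GSTU27, the glucosyltransferase UGT71C2, the kinases SIP4, AT1G28390 and AT2G31010, the transporters ABCB23, ABCC6 and AT1G71870, and the ion channel MSL4.

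Against its own wild type, a member was between 3.18 and 90.9-fold higher in lec1-1 with a median of 9.53, between 3.05 and 36.6-fold higher in abi3-5 with a median of 7.16, and between 1.63 and 151-fold higher in fus3-3 with a median of 13.1. These values set a bound in place of the fold where the wild type had no count, which was so for 39, 29 and 28 members. The rule fixed this direction.

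Of 13 lists of pathway and tissue genes, 4 held a member and 9 held none. The 6 listed members were Lhca6 on the photosynthesis list of 45 genes, XTH18 and XTH19 on the cell wall list of 41, PIN7 and WAG2 on the auxin list of 38, and ALC on the silique wall and flower list of 19. Several lists without a member failed on the wild-type side. Of 31 DNA replication genes, 17 had 20 or more counts in each intolerant mutant and 10 had 3 or fewer in the wild types, and of 29 genes of seedling light and sugar metabolism these numbers were 26 and 1. Of 43 genes of shoot apex and leaf identity 24 were on in the mutants and 11 below the wild-type limit, and of 39 genes of epidermis, stomata and cuticle 29 and 7. Of 36 cell division genes 8 were on and 16 below the limit, of 29 vascular genes 12 and 12, of 24 root genes 6 and 12, of 17 seed coat genes 7 and 3, and of 13 endosperm genes 1 and 9. The 4 lists with a member had 44, 18, 18 and 8 genes on in the mutants and 1, 18, 14 and 5 below the limit, for photosynthesis, cell wall, auxin and silique wall in this order.

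Markers of tissues that dissected seeds could carry overlapped between mutants and wild types. The 19 silique wall and flower genes summed to 58.9 to 132 CPM in lec1-1, abi3-5 and fus3-3, 43.8 to 74.9 CPM in lec2-1 and 15.6 to 121 CPM in abi3-1, against 16.3 to 128 CPM in the wild types. Of these genes, 8 had 20 or more counts in each intolerant mutant, and AP1, CRC and IND were at 0 in the 9 intolerant libraries. The 17 seed coat genes summed to 80.8 to 268 CPM in the intolerant mutants, 65.7 to 142 CPM in lec2-1 and 34.9 to 155 CPM in abi3-1, against 35.3 to 439 CPM in the wild types. Among the 17, 7 had 20 or more counts in each intolerant mutant, and AHA10 was at 0 in all libraries of these mutants. The 13 endosperm genes summed to 1.89 to 22.1 CPM in the intolerant mutants, 7.97 to 33.5 CPM in lec2-1 and 5.41 to 82.7 CPM in abi3-1, against 4.69 to 168 CPM in the wild types. Among the 13, 1 had 20 or more counts in each intolerant mutant, and MINI3 was at 0 in all libraries of these mutants. The part of these tissues in the members' levels was not tested.

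The day on which a member was highest was not used by the rule except through the sums. In lec1-1, 22 members were highest at 15 DAF, 22 at 17 DAF and 13 at 21 DAF, the last 22.8% of the members beside 38.0% of all 13591 loci with 20 or more counts in each intolerant mutant. In abi3-5, 10, 6 and 41 members were highest at 15, 17 and 21 DAF, and the 41 were 71.9% beside 40.4% of all such loci. The rule bears on this share, because the 20-count minimum in abi3-5 favours loci carried by its richest library, and nothing is read from the contrast. In fus3-3, 11, 35 and 11 members were highest on these days, and the 35 at 17 DAF were 61.4% beside 25.6%. The fus3-3 library of 17 DAF had the highest total of all, 6531673 counts. The 20-count minimum was a sum over the days in lec1-1 and fus3-3 too, so nothing is read from their contrasts either. Of the abi3-5 counts, over 50% were on day 21 in 35 members, 61.4% of them beside 20.6% of all such loci. Without that library 13 loci met the rule, and without abi3-5 at 15 or 17 DAF 45 or 41 did.

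Across the 9 libraries of lec1-1, abi3-5 and fus3-3 together, 3 members changed between 15 and 21 DAF. Of 55 members tested, 2 rose and 1 fell by edgeR's quasi-likelihood test at a Benjamini-Hochberg adjusted p under 0.05, beside 4.81% of 14734 genes tested (1.45% higher and 3.36% lower). AT1G08890 rose by 2.79 on the log2 scale (SE 0.56, adjusted p = 0.0146) and SIG4 by 2.57 (SE 0.65, adjusted p = 0.0422), both highest at 21 DAF in each mutant. LOL1 fell by 3.48 on the log2 scale (SE 0.85, adjusted p = 0.0370), and its day-21 level was the lowest of each mutant. The median change was 0.40 for the members and 0.03 for all genes tested, 36 members had a positive and 19 a negative estimate, and AT5G66520 and ENODL9 did not pass the filter on low counts. With each library left out in turn, the adjusted p ran from 0.00654 to 0.0832 for AT1G08890, whose call was lost without fus3-3 at 15 DAF. It ran from 0.0396 to 0.132 for SIG4, which was called only without lec1-1 or abi3-5 at 21 DAF, and from 0.000754 to 0.258 for LOL1, which was called only without abi3-5 at 15 or 21 DAF.

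Without abi3-5, in a fit chosen after the data were seen, lec1-1 and fus3-3 gave 13 called members of 56, beside 10.6% of 15313 genes (4.68% higher and 5.88% lower). The 4 that were higher at 21 than at 15 DAF were AT1G08890, by 2.65 on the log2 scale (SE 0.59, adjusted p = 0.0158), NdhO by 2.39 (SE 0.57, adjusted p = 0.0202), NdhN by 3.16 (SE 0.86, adjusted p = 0.0372) and SIG4 by 1.85 (SE 0.52, adjusted p = 0.0443). All 4 had this direction in lec1-1 and in fus3-3, but NdhN had only 4, 10 and 6 counts in lec1-1 at 15, 17 and 21 DAF. Among the 9 that fell were LOL1, with a log2 change of -4.73 (SE 0.68, adjusted p = 0.00148), AT3G06770, with -3.19 (SE 0.65, adjusted p = 0.00951), POLA3, with -3.74 (SE 0.86, adjusted p = 0.0179), and PAR1, with -1.60 (SE 0.46, adjusted p = 0.0471). The others that fell were NAI1, AT1G70280, AT4G29690, AT1G71870 and AT5G50740, and the median over the 56 was -0.37 beside -0.03 for all genes.

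The slope over days in abi3-5 was then compared with the shared slope of lec1-1 and fus3-3, also chosen after the data were seen. Over 6 days the median difference was 2.62 on the log2 scale for 55 members and 0.07 for 14734 genes. An unadjusted edgeR p under 0.05 was found for 32 members, beside 3224 of the 14734 genes. The adjusted threshold was passed by 1 member, beside 2.63% of all genes (1.15% higher in abi3-5 and 1.49% lower). TUB1 differed by 4.07 (SE 0.99, adjusted p = 0.0449), with a fitted change of 3.48 in abi3-5 and -0.58 in lec1-1 and fus3-3. Without the abi3-5 library of 21 DAF this difference was 2.01 (adjusted p = 1), and the call was also lost without lec1-1 at 15 or 17, abi3-5 at 15 or 17 or fus3-3 at 21 DAF (adjusted p = 0.0614 to 0.196). NdhO, with a difference of -4.42 (adjusted p = 0.0514), and bHLH145, with 6 (adjusted p = 0.0536), were next and did not pass. The fitted slope was upward in abi3-5 for 43 members, downward in lec1-1 and fus3-3 for 37, and both for 30, which is 54.5% beside 25% of all genes tested. The rule bears on these values, TUB1 included, because a member that was low in abi3-5 at 15 and 17 DAF had to gain its 20 counts at 21 DAF. In the abi3-5 library of 21 DAF the genes of seedling light and sugar metabolism summed to 2464 CPM, and in those of 15 and 17 DAF to between 1121 and 1296 CPM. The sigma factors summed to 100.3 CPM at 21 DAF and to between 31.4 and 32.6 CPM on the earlier days, and the endosperm genes to 1.89 CPM at 21 DAF and to between 9.59 and 22.1 CPM on the earlier days. The part of these differences in the members' day pattern was not tested.

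**Figure D4:**
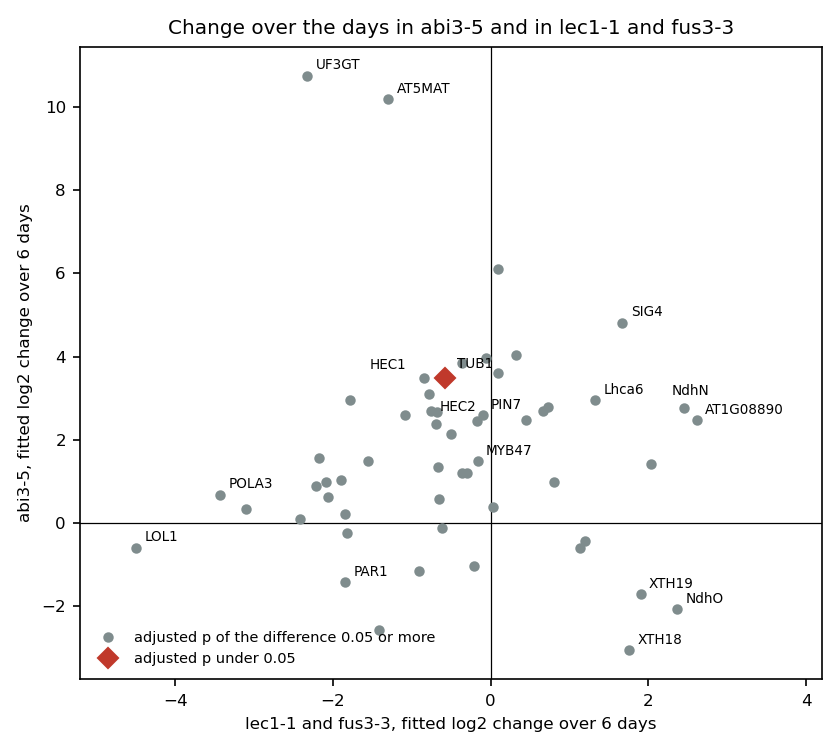
Fitted log2 change over 6 days, from 15 to 21 DAF, in abi3-5 (vertical) and in lec1-1 and fus3-3 together (horizontal) for 55 members, with the called member TUB1 as a red diamond. The upper left field, up in abi3-5 and down in the other mutants, holds 30 members, and XTH18, XTH19 and NdhO lie in the lower right field. The heights of UF3GT and AT5MAT rest on libraries with 0 counts and are not measured sizes.

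Few differences in level between the intolerant mutants passed the test. These comparisons are not independent of the rule, which required a minimum count in each of these mutants. A locus nearly absent from any of them could not be a member. The mutant abi3-5 was nearest to that minimum for 42 members. The calls are therefore a description, and nothing is read from how few there were. The comparison of abi3-5 with lec1-1 gave 2 of 56 members called, both lower, beside 4.9% of 16085 genes (1.69% higher and 3.21% lower). PAR1 had a mean of 1.98 ± 1.7 CPM in abi3-5 and 12.0 ± 6.91 CPM in lec1-1 (SD, n = 3 days each), a log2 difference of -2.70 (SE 0.53, edgeR adjusted p = 0.00558), and its highest abi3-5 library was below its lowest lec1-1 library. AT5G08391 had 2.34 ± 2.34 CPM in abi3-5 and 13.9 ± 3.21 CPM in lec1-1 (SD, n = 3 days each), a log2 difference of -2.72 (SE 0.69, edgeR adjusted p = 0.0298), again without overlap. With a library left out, PAR1 kept its call (adjusted p = 0.0158 to 0.0453), and AT5G08391 kept it only without abi3-5 at 21 DAF (adjusted p = 0.0149, otherwise 0.0582 to 0.204). That of fus3-3 with abi3-5 gave 1 called member of 56, beside 5.31% of all genes (3.41% higher and 1.9% lower). This was PAR1, with 9.75 ± 8.37 CPM in fus3-3, a log2 difference of 2.22 (SE 0.53, adjusted p = 0.0189), although the fus3-3 library of 21 DAF fell within the range of abi3-5. This call was lost without abi3-5 at 15 or 17 DAF or fus3-3 at 17 DAF (adjusted p = 0.0941 to 0.160). That of fus3-3 with lec1-1 gave 0 called members of 56 by edgeR and 0 by DESeq2, beside 1.05% of all genes (0.622% higher and 0.429% lower). An unadjusted edgeR p under 0.05 was found for 5 members, beside 1288 of all 16085 genes. XTH18 was the member nearest to the threshold there, with a log2 difference of 3.03 and an edgeR adjusted p of 0.297.

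The tolerant mutants lec2-1 and abi3-1 stood far apart in the level of these genes. As a share of its mean in lec1-1, abi3-5 and fus3-3, a member had a median level of 29.8% in lec2-1 and 2.82% in abi3-1, beside 95.8 and 99.5% for all 13591 loci with 20 or more counts in each intolerant mutant. The rule bears on these shares, because it chose members by their counts in the intolerant mutants and their near-absence in Ws and Ler. Nothing is read from the contrast with all loci. In lec2-1, 14 members had 20 or more counts, 20 had 3 or fewer, and 11 exceeded the mean of the intolerant mutants. In abi3-1 none had 20 or more, 51 had 3 or fewer and 22 had none, with 8 counts as the highest. The abi3-1 libraries were shallower, with 6954207 counts in all beside 7162523 in lec2-1.

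**Figure D5:**
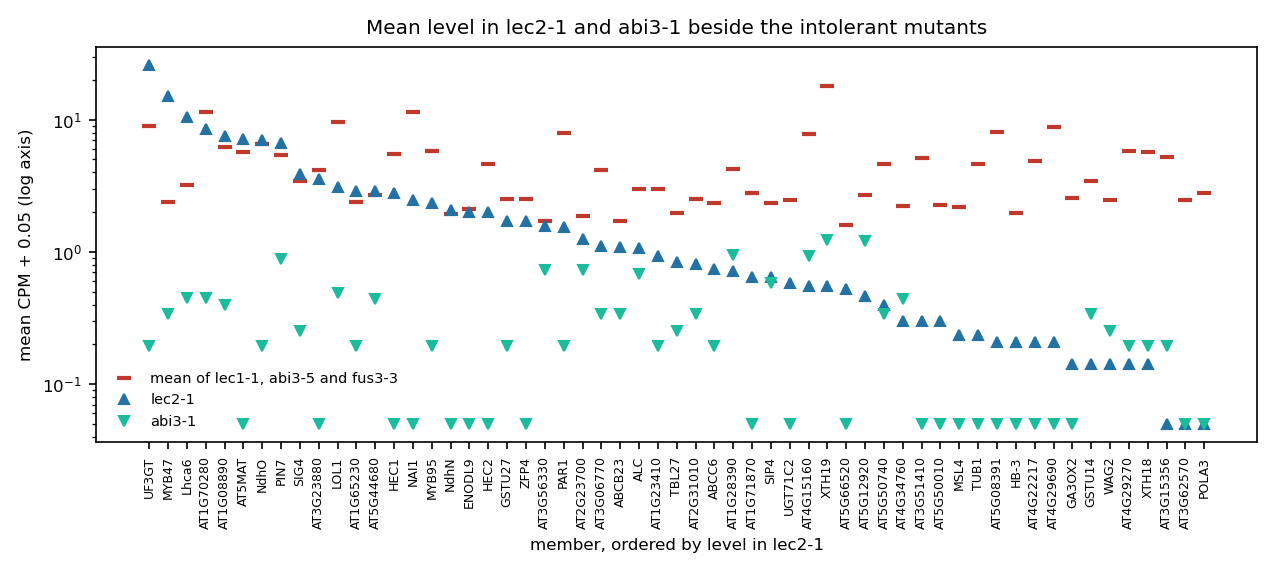
Mean CPM plus 0.05 of each member on a log axis in lec2-1 (triangles up, 2 libraries), abi3-1 (triangles down, 3 libraries) and lec1-1, abi3-5 and fus3-3 together (bars, 9 libraries), ordered by the level in lec2-1. UF3GT, MYB47 and Lhca6 stand highest in lec2-1, and 45 of 57 members lie higher in lec2-1 than in abi3-1.

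The libraries of lec2-1 and abi3-1 were not used by the rule, and these mutants were compared directly. The rule did hold each member near 0 counts in their wild types, Ws and Ler. In abi3-1 against Ler, 0.00622% of 16085 genes were called by edgeR. The low abi3-1 side of this comparison is therefore not independent of the rule. Of 56 members tested, 3 were higher in lec2-1 and 0 lower by edgeR's quasi-likelihood test, beside 2.2% of 16085 genes (1.82% higher and 0.379% lower). MYB47 had 15.0 and 15.4 CPM in lec2-1 at 15/17 and 21 DAF and 0.875, 0 and 0 CPM in abi3-1, a log2 difference of 5.26 (SE 0.87, adjusted p = 0.00372). AT1G70280 had 11.8 and 5.01 CPM in lec2-1 and 0, 0 and 1.2 CPM in abi3-1, a log2 difference of 4.42 (SE 1.12, adjusted p = 0.0465). NAI1 had 19 counts in lec2-1 and 0 in abi3-1, which makes it at least 3.96-fold higher with a floor of 3 counts over the abi3-1 libraries (edgeR adjusted p = 0.0302). In all 3 the libraries of lec2-1 and abi3-1 did not overlap. With each library of these mutants left out in turn, MYB47 kept its call (adjusted p = 0.00709 to 0.0454), AT1G70280 kept it only without abi3-1 at 21 DAF (adjusted p = 0.0335, otherwise 0.131 to 0.283), and NAI1 lost it in each case (adjusted p = 0.0762 to 0.125). Where lec2-1 was left with 1 library, that library was assumed to vary like the other groups. The median difference over the 56 was 2.57 beside 0.00 for all genes, and 46 members had a positive estimate. An unadjusted edgeR p under 0.05 was found for 21 members, beside 1980 of all 16085 genes. Most of the 56 passed the filter on low counts through the intolerant libraries. In a fit of lec2-1 and abi3-1 alone, 10 members passed it and 4 were called, all higher. The share of all genes called in that fit is not given here, and nothing is read from the count. There MYB47 kept its call (adjusted p = 0.0155), AT1G70280 lost it (adjusted p = 0.0934) and NAI1 was not tested. These mutants are in different ecotypes, Ws and Ler, and the mutated gene and the ecotype cannot be told apart.

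Other members with many counts in lec2-1 did not pass that test. UF3GT had 193 counts in lec2-1 and 1 in abi3-1, a count ratio of 121 with an interval of 21.4 to 4788 that covers counting error only, and its adjusted p was 0.0962. Lhca6 had 90 and 2 counts in lec2-1 and abi3-1, a ratio of 28.1 (7.56 to 236, adjusted p = 0.0750), and NdhO had 56 and 1, a ratio of 35.0 (6.03 to 1407, adjusted p = 0.0784). AT5MAT had 57 counts in lec2-1 and 0 in abi3-1, at least 11.9-fold higher, with an adjusted p of 0.187, and AT1G08890 had an adjusted p of 0.0512. The 6 members highest in abi3-1 were XTH19 and AT5G12920, a WD40 repeat protein, at a mean of 1.17 CPM each, AT1G28390 at 0.893 CPM, AT4G15160 at 0.875 CPM, PIN7 at 0.829 CPM and AT3G56330, a tRNA methyltransferase, at 0.683 CPM. The abi3-1 library of 15 DAF held all counts of AT4G15160 and AT5G12920, with 2.63 and 3.50 CPM.

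Set against their wild types, where the rule fixed the wild-type side, lec2-1 had 10 members called higher than in Ws by edgeR. This was beside 1.88% of all genes (1.85% higher and 0.0373% lower). The mutant abi3-1 had 0 members called against Ler by edgeR, beside 0.00622% of all genes. There XTH19 was the 1 member at an unadjusted p under 0.05, beside 269 of all 16085 genes. The 10 were MYB47, AT1G08890, AT1G70280, PIN7, AT1G65230, Lhca6, NAI1, AT5G44680, NdhO and MYB95. MYB47 was at least 34.5-fold higher in lec2-1 than in Ws, and Lhca6 at least 23.9-fold. Because near-absence in Ws and Ler chose the members, these counts are a description and nothing is read from them.

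The same tests were also read for the genes of the lists, members included. In lec2-1 against abi3-1, 5 of 44 photosynthesis genes, 8 of 29 genes of seedling light and sugar metabolism, 1 of 22 auxin genes and 1 of 33 epidermis genes tested were higher, 1 of 20 DNA replication genes was lower, and none was called of 17 cell division, 24 cell wall, 16 vascular, 28 shoot apex, 11 seed coat, 10 root, 10 silique wall and 3 endosperm genes. Of the families chosen after the members were seen, 2 of 12 NDH genes, 5 of 12 anthocyanin genes and 1 of 6 sigma factor genes tested were higher in lec2-1 than in abi3-1, and none was called of 15 XTH, 4 PIN, 2 HECATE and 1 GA3OX genes. Between 15 and 21 DAF in the 3 intolerant mutants, 4 of 23 cell wall genes, 2 of 8 silique wall, 2 of 8 seed coat, 2 of 14 cell division, 2 of 14 vascular, 2 of 31 epidermis, 1 of 21 auxin, 1 of 9 root and 1 of 1 endosperm genes were lower at 21 DAF. Of 28 genes of seedling light and sugar metabolism 2 were higher and 1 lower, and none was called of 44 photosynthesis, 19 DNA replication and 27 shoot apex genes. In the same families 5 of 14 XTH genes were lower at 21 DAF, 1 of 11 NDH genes and 1 of 6 sigma factor genes, SIG4, were higher, and none was called of 12 anthocyanin, 4 PIN, 2 HECATE and 1 GA3OX genes.

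The members are spread over the genome. RefSeq has a model for 57 of the 59 loci, all protein coding, of which 18, 6, 12, 8 and 13 lie on chromosomes 1, 2, 3, 4 and 5. The median mRNA length was 1564 bases for the members and 1541 bases for all protein-coding genes, and 31.6% of the members and 20.6% of all had a single exon. Several members overlap a neighbour on the other strand, such as MYB95 and AT1G74440 over 933 bases, TUB1 and AT1G75785 over 639 bases, and SIP4 and AT2G30362 over 1823 bases. Over their whole span, ALC lies within ICU2 (1326 bases), AT1G23410 within CAF2 (885 bases) and AT5G66520 within AT5G66530 (1958 bases). Whether counting used the strand is not given in the sources used here, so reads of such pairs cannot be told apart.

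Motifs were searched on both strands of the 250 bases before the start of 57 members and of 26706 protein-coding genes. The G-box CACGTG was found in 7.02% of the members and 6.58% of all genes, the RY element CATGCA in 7.02 and 8.51%, the TATA motif TATAAA in 50.9 and 47.7%, and the I-box GATAAG of light-responsive genes in 15.8 and 12.2%. CCAAT, the letters bound by the factor that includes LEC1, was found in 36.8% of the members and 46.1% of all genes, and the W-box TTGACC in 5.26 and 12.2%. The E2F motif TTCCCGC of DNA replication genes was found in 0 members and 1.21% of all genes. The second E2F motif TTGGCGC was found in 1.75% of the members and 0.749% of all genes, the telo-box AAACCCT in 5.26 and 7.27%, the site II element TGGGCC in 10.5 and 13.9%, and the MSA core AACGG of genes of cell division in 24.6 and 20.6%. The GAGA repeat GAGAGA was found in 12.3% of the members and 20.4% of all genes, the L1 box core AAATGCA of epidermal genes in 3.51 and 5.73%, and the auxin element TGTCTC in 8.77 and 10.9%. Of the 14 motifs, none holds another in its letters. These shares describe letters in a short window and say nothing of the factors that bind there.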

How the data were processed

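Seed RNA of 8 genotypes at 15, 17 and 21 DAF was sequenced as barcoded SOLiD libraries, per the labels' protocols. The authors deposited a count table with 24 columns and 33597 loci, unnormalized. The genome build was TAIR10, per the submitters' processing notes. The aligner, the counter and its use of strand are not given in the sources used here. A second table, normalized by the authors, was not used here. The notes also name edgeR, without a version.

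The identical lec2-1 columns were counted as 1 library placed between the days. Counts were fitted in R 4.3.3 with edgeR 4.0.16: filterByExpr (minimum count 10), TMM scaling, quasi-likelihood fits on genotype and day as factors, and Benjamini-Hochberg adjustment over all genes tested, with a call at an adjusted p under 0.05. The fit for days used the 9 libraries of lec1-1, abi3-5 and fus3-3, and the other comparisons used all 23. The day factor acts as the block that pairs libraries of the same day, since the labels give each genotype the same 3 days. Levels are CPM of the TMM-scaled library totals. Totals of 1670355 to 6531673 counts make 3 counts over the wild types equal to 0.163 CPM. A fold against 0 counts is a lower bound with a floor of 3 counts over the group, and ratios to few counts have 95% intervals that cover counting error only. Scripts used Python 3.11.15, pandas 2.3.3, numpy 2.4.6, scipy 1.17.1 and matplotlib 3.10.9. Simulated data served to check the test between days in lec1-1, abi3-5 and fus3-3 and the comparisons between these mutants. The comparison of lec2-1 with abi3-1 and that of the abi3-5 slope were checked likewise. The comparisons with Ws and Ler and the day fit of lec1-1 and fus3-3 alone were not checked in this way.

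The members and all 13 gene lists were chosen with earlier results of these data known. Genes named are the 12 members with the highest mean CPM in the intolerant mutants, the 6 highest in lec2-1 and in abi3-1, up to 6 called per test and direction, members on a list and loci at the thresholds. Other members are named by role and were chosen after their values were seen. Alternatives were other limits of the rule, other scalings, no filter, DESeq2 1.42.0, other models and each library left out. The 3 loci left out by name are not reported here.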

Additional observations from a re-analysis of the deposited data

Results flagged for a closer look

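The change over the days differed between abi3-5 and the other intolerant mutants in 1 member by edgeR's test of the difference itself, adjusted over all genes. TUB1, a tubulin gene, changed by 4.07 more on the log2 scale over 6 days in abi3-5 than in lec1-1 and fus3-3 (adjusted p = 0.0449). Its level was 0.849, 1.14 and 7.56 CPM in abi3-5 at 15, 17 and 21 DAF, so the difference rests on the abi3-5 library of 21 DAF. That library also carried TUB1 over the rule's 20-count minimum, with 3, 5 and 36 counts at 15, 17 and 21 DAF, so the slope is tested on values that chose the gene and is no independent evidence. In that library vascular tissue genes summed to 213 CPM, beside 149 to 172 CPM in the earlier abi3-5 libraries, and the part of such shifts in the TUB1 value was not tested. TUB1 overlaps AT1G75785 on the other strand over 639 bases.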

How the results depend on the processing

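The rule gave 59 loci as stated. With a wild-type maximum of 0, 1, 5 or 10 counts it gave 10, 20, 92 or 256 loci, and with a mutant minimum of 10, 30 or 50 counts 166, 26 or 7. Its mirror image, which is stricter after scaling, gave 1. Leaving out a library gave 13 loci, without abi3-5 at 21 DAF, to 97, without Ler at 15 DAF.

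For the change between 15 and 21 DAF, 3 members were called in the stated fit, 6 with no filter on low counts, 5 by DESeq2, 0 in a fit of all libraries and 13 in lec1-1 and fus3-3 alone. Leaving out a library gave 1 to 12 members, 12 without abi3-5 at 21 DAF and 1 without lec1-1 at 15 or 17, abi3-5 at 17 or any fus3-3 library. For lec2-1 against abi3-1, 3 members were called, 12 with library totals (where the median of all genes moved to 0.54 on the log2 scale), 8 with no filter, 7 by DESeq2, 4 of 10 tested with these genotypes alone, 1 with no day in the model, which is the fit without the replicate block, and 5 with the Col-0 libraries of 17 and 21 DAF exchanged. Leaving out a library gave 1 to 2, with 1 without either lec2-1 library or without abi3-1 at 15 or 17 DAF. MYB47 kept its call in each alternative run (adjusted p up to 0.0454), and AT1G70280 lost it with these genotypes alone.

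For abi3-5 against lec1-1, 2 members were called, 4 with these genotypes alone and 0 with no day in the model. Leaving out a library gave 1 to 6, with 6 without abi3-5 at 21 DAF and 1 without any other library of these mutants. For fus3-3 against abi3-5, 1 was called, 0 with these genotypes alone, 0 with no day in the model and 3 with the Col-0 libraries exchanged. Leaving out a library gave 0 to 10, with 10 without abi3-5 at 21 DAF, 2 without fus3-3 at 15 or 21, and 0 without abi3-5 at 15 or 17 or fus3-3 at 17. For the slope of abi3-5 against lec1-1 and fus3-3, 1 was called, 3 with upper quartile scaling (median of all genes 0.19), 15 with library totals (median 0.53), 22 with no filter and 7 by DESeq2. Leaving out a library gave 0 to 7, with 0 without any abi3-5 library or fus3-3 at 21 DAF. For fus3-3 against lec1-1, each alternative run gave 0. No result reversed, and the cause of these changes was not tested. With 1 library per genotype and day, a change on 1 day alone has little power.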
